A study of Mus musculus with 8 samples.

Results

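Of 70142 clusters of Argonaute-bound RNA fragments in mouse forebrain, 2652 (3.78%, 95% Wilson interval 3.64 to 3.92) were annotated to coding sequence and to no UTR, intron or circular RNA. They were chosen by the deposited annotation alone: a gene named for coding sequence, and no entry for 3' UTR, 5' UTR, intron or circular RNA. An entry for an antisense gene was allowed. The choice used no read count and no miRNA seed. The clusters came from HITS-CLIP, in which RNA is crosslinked to protein by ultraviolet light, immunoprecipitated, trimmed with RNase and sequenced. The antibody was M2 FLAG, and mice were 8 to 14 weeks old. For 5 libraries the mice carried Camk2a-cre together with the allele Rosa-Stopfl/fl-Flag-Ago2, so that Cre driven by the Camk2a promoter releases the tagged Argonaute from the Rosa26 locus. For 3 control libraries the mice carried that allele and no Cre. The labels give the cell type as Camk2a neurons, but the material lysed was whole forebrain tissue, so the selection for those cells rests on the tag.

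The deposited table holds 1 pooled read count for each cluster and separates neither libraries nor genotypes. No value below therefore has a replicate spread, a control value or a test. Intervals on shares are 95% Wilson intervals and intervals on numbers of seed matches are 95% exact Poisson intervals. Both cover counting error only and treat clusters, genes or matches as independent. Several clusters can lie in 1 gene, and several matches in 1 cluster. PCR copies of a fragment carry no molecular identifier, so read counts may include such copies. In pooled tissue, few molecules in many cells and many molecules in few cells cannot be told apart.

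Argonaute proteins hold a miRNA and pair its seed, the bases near its 5' end, with complementary bases in an mRNA. Sites in 3' UTRs are the best known and the most effective on average, because a ribosome moving through coding sequence can displace a bound complex. Argonaute nevertheless occupies many coding regions in brain, where miR-128, miR-9, miR-29, miR-27 and miR-181 are familiar miRNAs. A match that also pairs miRNA base 8, or that has an A opposite miRNA base 1, is a stronger type of site than a match to bases 2 to 7 alone.

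Sequences of 6 miRNAs are shown because their seed matches were the most frequent in these clusters relative to the rest of the same coding sequences. The mature sequences are those of RefSeq for mouse (GRCm38.p6), written 5' to 3', with bases 2 to 8 in capitals. The first 5 families were chosen by a ranking rule and miR-181, the sixth, was added after its values were seen.
miR-128-3p: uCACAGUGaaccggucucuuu
miR-29a-3p: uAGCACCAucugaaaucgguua
miR-100-5p: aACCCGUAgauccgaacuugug
miR-27b-3p: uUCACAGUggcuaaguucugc
miR-9-5p: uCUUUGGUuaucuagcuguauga
miR-181a-5p: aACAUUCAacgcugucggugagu
The seeds of miR-128 and miR-27 are the same run of bases offset by 1 position, so 1 stretch of mRNA can match both.

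Deep clusters that hold these matches are shown next, as the transcript sequence read 5' to 3', with the complement of miRNA bases 2 to 7 in capitals. For each family they are the deepest clusters of at most 200 bases not already shown for another family. A further condition was that under 50% of the 31-base stretches also occur in a transcript of another gene. These rules were set after the values were seen. In the Zfp60 cluster the share of such stretches was 23.1%. The sequences come from GENCODE M21 transcripts on mm10. For miR-128 they are Nefh (chr11:4941224-4941316, minus strand, 213 reads), Zfp60 (chr7:27749554-27749661, plus strand, 166 reads) and Elavl4 (chr4:110211491-110211646, minus strand, 113 reads). Nefh encodes the heavy neurofilament subunit, Zfp60 a zinc finger protein and Elavl4 a neuronal RNA-binding protein of the Hu family.
Nefh, miR-128: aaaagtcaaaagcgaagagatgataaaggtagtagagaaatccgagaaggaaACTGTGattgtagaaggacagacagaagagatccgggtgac
Zfp60, miR-128: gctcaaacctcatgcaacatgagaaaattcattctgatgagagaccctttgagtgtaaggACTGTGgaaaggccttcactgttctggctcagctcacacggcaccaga
Elavl4, miR-128: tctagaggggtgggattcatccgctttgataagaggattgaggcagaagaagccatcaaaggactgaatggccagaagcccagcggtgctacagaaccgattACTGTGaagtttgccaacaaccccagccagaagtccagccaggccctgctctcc
In Nefh the match began at base 53 of 93 and in Zfp60 at base 61 of 108, near the middle of each cluster. In Elavl4 it began at base 103 of 156. The Nefh cluster also counted as a match for miR-27.

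For miR-29 the deepest such clusters were Phldb1 (chr9:44716474-44716600, minus strand, 324 reads) and Pnmal1 (chr7:16961347-16961465, plus strand, 302 reads). For miR-27 the cluster shown is Clstn2 (chr9:97458148-97458259, minus strand, 115 reads), which encodes calsyntenin 2, a synaptic membrane protein. For miR-9 it is Wasf1 (chr10:40936598-40936736, plus strand, 280 reads), and for miR-99/100 it is Bsn (chr9:108111288-108111428, minus strand, 105 reads).
Phldb1, miR-29: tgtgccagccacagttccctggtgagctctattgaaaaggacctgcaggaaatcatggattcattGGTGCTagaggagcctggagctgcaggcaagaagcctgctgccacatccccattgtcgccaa
Pnmal1, miR-29: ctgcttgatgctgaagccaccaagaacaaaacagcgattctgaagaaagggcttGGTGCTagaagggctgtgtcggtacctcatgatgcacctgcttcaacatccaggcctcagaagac
Clstn2, miR-27: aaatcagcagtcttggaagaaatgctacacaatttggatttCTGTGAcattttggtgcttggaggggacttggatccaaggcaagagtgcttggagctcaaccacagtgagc
Wasf1, miR-9: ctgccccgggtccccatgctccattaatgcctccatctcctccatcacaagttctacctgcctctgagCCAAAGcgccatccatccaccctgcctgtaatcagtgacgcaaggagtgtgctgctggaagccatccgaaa
Bsn, miR-99/100: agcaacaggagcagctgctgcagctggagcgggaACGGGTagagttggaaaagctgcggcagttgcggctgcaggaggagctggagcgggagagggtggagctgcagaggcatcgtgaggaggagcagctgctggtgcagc
The Phldb1, Pnmal1 and Wasf1 matches began at bases 66 of 127, 55 of 119 and 69 of 139, again near the middle. The Bsn match began at base 35 of 141. The Clstn2 cluster also counted as a match for miR-29.

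For miR-181 the clusters shown are Cttnbp2 (chr6:18408627-18408737, minus strand, 113 reads) and Gcc2 (chr10:58298671-58298787, plus strand, 107 reads). Cttnbp2 encodes a cortactin-binding protein of dendritic spines, and Gcc2 a golgin of the trans-Golgi network.
Cttnbp2, miR-181: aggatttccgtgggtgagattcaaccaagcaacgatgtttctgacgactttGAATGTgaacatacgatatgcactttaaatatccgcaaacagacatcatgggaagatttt
Gcc2, miR-181: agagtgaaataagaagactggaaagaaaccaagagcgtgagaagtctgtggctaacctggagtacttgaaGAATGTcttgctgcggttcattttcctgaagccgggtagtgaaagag
The match began at base 52 of 111 in Cttnbp2 and at base 71 of 117 in Gcc2.

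The annotation of the clusters was checked against GENCODE M21. Of the 2652, 2624 (98.9%) lay inside a single coding exon of a gene model, and these are the clusters used for positions and seed ratios. In 220 clusters, part of the sequence was non-coding in another model of the same gene. In 126 clusters with 3167 reads together, at least 50% of the 31-base stretches also occurred in a transcript of another gene, so their reads cannot be assigned with certainty. An antisense gene was named for 65 clusters, and 8 clusters named more than 1 gene. A small RNA gene was overlapped by 1 cluster, in Fam155a (25 reads). Plus-strand and minus-strand clusters numbered 1339 and 1313.

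The clusters were close in depth to those of 3' UTR alone but lacked the deepest sites. They held 73297 reads, or 4.00% of 1834586. A cluster held 10 to 324 reads with a median of 21 and quartiles of 14 and 32. Over all 70142 clusters the median was 18, and over the 7063 clusters of 3' UTR alone it was 21. At least 100 reads were reached by 54 clusters (2.04%, 1.56 to 2.65), against 2.55% (2.21 to 2.94) of 3' UTR clusters and 2.94% (2.03 to 4.25) of the 917 coding clusters that carried a circular RNA identifier. These intervals overlap. Over all clusters the share was lower, 1.37% (1.29 to 1.46). The upper ends did differ in range: the deepest cluster held 1297 reads with a circular RNA identifier, 5730 in 3' UTR alone and 17721 where coding sequence and intron annotation met. Of the 14443 clusters that touched coding sequence in any way, 36 were deeper than the deepest cluster of coding sequence alone. The table's floor lay at 10 reads, where 188 of these clusters sat, and 1236 had fewer than 20.

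**Figure D1:**
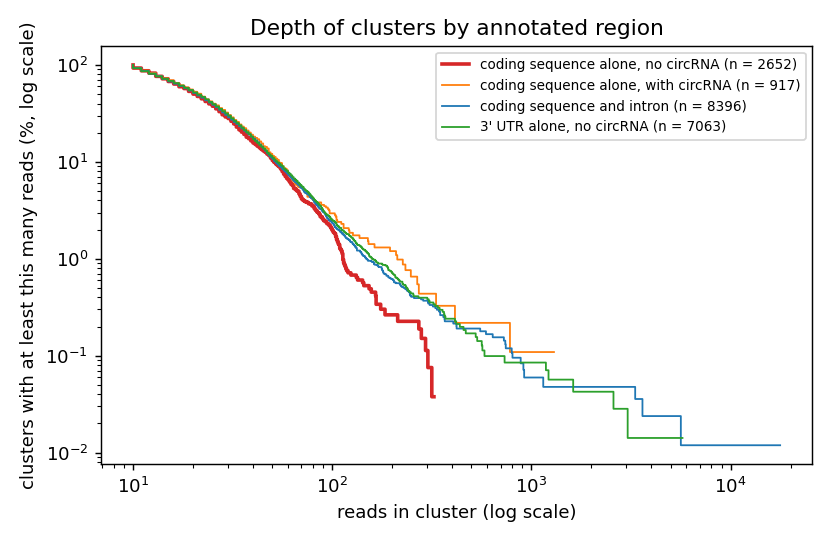
The share of clusters (%, log scale) with at least the number of reads on the x axis (log scale) is drawn for 4 annotation classes. The 4 lines run together at low depth, and the line of the 2652 clusters in coding sequence alone ends at 324 reads, before the others.

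The median width was 129 bases with quartiles of 108 and 170, and the range was 4 to 557 bases. Spearman's rho between reads and width was 0.157 over the 2652 clusters, a description over sites that share 1 pooled table. Reads were spread thinly, with 3.45% of them in the 10 deepest clusters and 15.9% in the 100 deepest.

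The 15 deepest clusters held 144 to 324 reads each. Phldb1 led with 324 reads over 127 bases, in an internal coding exon of 1352 bases. Cyfip1 followed with 316 reads at 55930003 to 55930150 on the plus strand of chromosome 7, in the last coding exon, 97.8% of the way through the coding sequence. Wasf1 had 280 reads at 86.5% of its coding sequence. Cyfip1 and Wasf1 encode subunits of the same actin-regulating complex, the WAVE complex, and Cyfip1 also binds the fragile X protein.

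Pnmal1 and Pnmal2, neighbouring genes of the paraneoplastic Ma antigen family, had 302 and 294 reads. The Pnmal2 cluster lay at 16945179 to 16945415 on the plus strand of chromosome 7, in the only coding exon, at 10.3% of the coding sequence. The Pnmal1 cluster lay at 91.8% of its own. They therefore sat at opposite ends of the 2 coding sequences. Both held a brain miRNA seed match: miR-29 and let-7 in Pnmal1, and miR-9, miR-128 and miR-27 in Pnmal2.

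Mapk6, an atypical MAP kinase (272 reads), and Ythdc1, a nuclear reader of methylated adenosine in RNA (184 reads), were also among the 15 deepest. All of their 31-base stretches also occurred in a transcript of another gene, so neither count can be assigned to its gene with certainty. The Ythdc1 cluster was the only one of the 15 without a match to any of the 29 brain families.

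Dicer1, the enzyme that cuts miRNA precursors, had a cluster of 175 reads at 104702819 to 104703155 on the minus strand of chromosome 12. It was 337 bases wide and held 7 matches to 6 brain families, among them miR-9, miR-29 and miR-27. Rraga, a GTPase that signals amino acids to mTORC1, had 166 reads in its only coding exon, with matches to miR-128 and miR-29 among 6 families. Zfp60 also had 166 reads. The remaining 4 were Apbb1, an adaptor of the amyloid precursor protein (165 reads), Ahsa1, a co-chaperone of Hsp90 (157 reads), Synpo, which encodes synaptopodin of the spine apparatus (153 reads), and Hivep1, a large zinc finger transcription factor (144 reads). The Hivep1 cluster was 427 bases wide and held 8 matches to 6 families, while that of Ahsa1 was 145 bases wide and held 2. Wide clusters had more room for a match.

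The 2652 clusters lay in 1901 genes. A single cluster was found in 1456 genes, 2 clusters in 292 and at least 3 in 153. Plec, which encodes the cytoskeletal linker plectin, had the most, 15 clusters of 10 to 69 reads and 409 reads in all. Map1a, a microtubule-associated protein of mature neurons, had 12 clusters of 10 to 91 reads (402 in all). Bsn, the presynaptic scaffold bassoon, had 11 clusters of 10 to 105 reads (345 in all). In these genes reads were divided over several clusters. The deepest held 69 of the 409 reads in Plec, 91 of the 402 in Map1a and 105 of the 345 in Bsn.

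The next genes were the nucleoporin Ranbp2 (8 clusters, 244 reads), the Wnt pathway regulator Apc (8 clusters, 207 reads), Igfn1 (8 clusters, 206 reads), Map1b (8 clusters, 204 reads) and the imprinted zinc finger gene Peg3 (8 clusters, 179 reads). Sptb, a beta spectrin, had 7 clusters with 309 reads, and Spen, a transcriptional repressor, 7 with 264. Per kb of coding sequence, Peg3 was the densest of the 10 with 1.70 clusters and Spen the sparsest with 0.64. Plec had 1.07 and Map1a 1.33. These 10 genes have long coding sequences, of 4713 bases in Peg3 to 14058 bases in Plec.

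Of the 1901 genes, 976 (51.3%, 49.1 to 53.6) also had a cluster annotated to a 3' UTR. Among the 6482 genes with a coding cluster of any class the share was 53.2% (52.0 to 54.4). The intervals overlap.

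The rule favours long exons, because a cluster that reaches an intron is left out, so the following is a description of what the rule selects. The coding exon that held a cluster had a median length of 620.5 bases (quartiles 224 and 1541.5), while the 25711 coding exons of the same genes had a median of 135. Exons of at least 500 bases held 55.6% of the clusters (53.7 to 57.5) and 36.7% of the coding bases. Exons of at least 3000 bases held 9.91% of the clusters (8.82 to 11.1) and 8.04% of the bases. Internal coding exons held 53.1% of clusters and 71.4% of bases, and first coding exons 12.3% and 9.42%. Last coding exons held 23.5% and 13.5%, and single-exon coding sequences 11.1% and 5.63%.

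The choice of genes followed the same property. Among protein-coding genes whose longest coding exon is under 200 bases, 2.19% (1.81 to 2.63) had such a cluster, against 30.2% (27.0 to 33.6) of those with an exon of 2000 bases or more. Among genes with a coding cluster of any class, which leaves out genes without signal, the shares were 7.97% (6.64 to 9.54) and 63.6% (58.3 to 68.5).

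**Figure D2:**
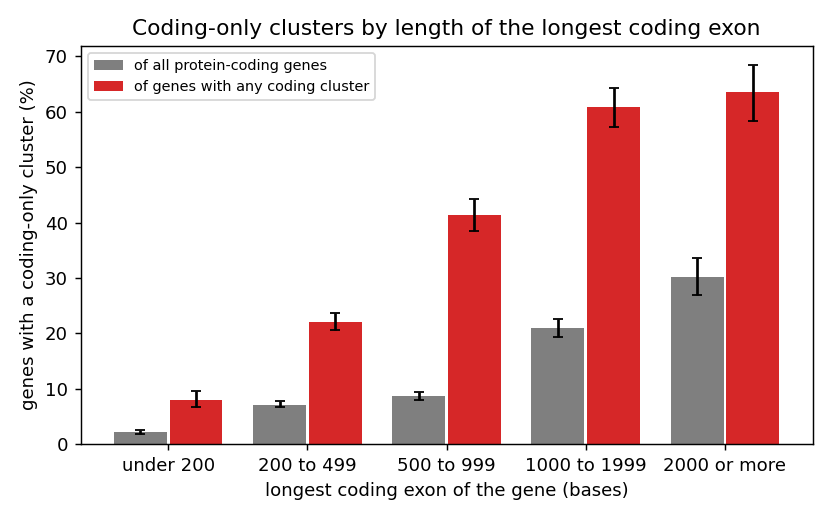
Bars give the share of genes (%) with a cluster in coding sequence alone, by the length of the gene's longest coding exon in bases; error bars are 95% Wilson intervals. Of genes with any coding cluster the share was 7.97% in the shortest class and 63.6% in the longest, and of all protein-coding genes 2.19% and 30.2%.

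Counted by their centres, clusters were fewest in the part of the coding sequence nearest the start codon. The rule leaves out clusters that reach a UTR, which thins both ends, so these positions also describe what the rule selects. The coding sequence was divided into 5 equal parts, which from 5' to 3' held 15.1% (13.8 to 16.5), 19.2%, 19.6%, 23.1% and 23.1% (21.6 to 24.8) of the 2624 clusters. The 3' side of the midpoint held 56.5% (54.6 to 58.4). When the first base of the cluster decided the position, and not its centre, the first and last parts held 18.7% and 18.9% and the 3' side 52.6%, so most of the contrast between the ends depended on that choice. GC content was 54.5% in the clusters and 53.0% in all coding sequence of the same genes.

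Genes of chromatin, the cytoskeleton and ion channels carried these clusters most often among the gene lists examined. The shares are read beside all protein-coding genes, of which 1879 of 21877 (8.59%) had at least 1 cluster, and beside exon length, which moves with them. Of 25 chromatin regulators, 21 had a cluster, and all 25 had a coding cluster of some class. Kmt2a and Kmt2b, histone methyltransferases, led with 174 and 144 reads. The median longest coding exon in that list was 1260 bases, against 339 bases over all genes.

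Of 20 cytoskeletal genes and ankyrins, 14 had a cluster, led by Map1a (402 reads) and Nefh (233 reads). Their median longest exon was 1442.5 bases. Of 20 ion channels, 13 had a cluster, among them the calcium channel Cacna1e (143 reads), with a median longest exon of 882 bases. Protein kinases of calcium and ERK signalling stood at the other end. Only 2 of 20 had a cluster, although 16 of the 20 had a coding cluster of some class. Their median longest exon was 212.5 bases, and none had one of 1000 bases. The part of exon length in these differences was not tested.

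Synaptic lists lay between. Of 18 presynaptic genes, 6 had a cluster, led by Bsn (345 reads) and Unc13a, a vesicle priming factor (112 reads). Of 19 postsynaptic scaffolds and adhesion genes, 7 had one, led by Shank1 (103 reads) and the neuroligin Nlgn3 (78 reads in 3 clusters). All 3 Nlgn3 clusters lay in sequence shared with a transcript of another gene, so their reads cannot be assigned with certainty. Of 20 glutamate receptors, 7 had one, led by the NMDA receptor subunits Grin2c (46 reads) and Grin2d (28 reads). Of 14 activity-induced genes, 5 had one, led by the transcription factors Egr1 (70 reads) and Junb (35 reads). Of 16 translation genes, 6 had one, led by the elongation factor Eef1a2 (86 reads) and the initiation factor subunit Eif3a (59 reads). Among genes with a coding cluster of any class, the shares in these lists were, in the same order, 35.3%, 38.9%, 36.8%, 62.5% and 40.0%. Over all genes with such a cluster the share was 29.3%.

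Of 13 genes of the miRNA machinery, 3 had a cluster: Dicer1 (206 reads in 2 clusters), Tnrc6a (181 reads in 7 clusters) and Tnrc6b (149 reads in 5 clusters). Tnrc6a and Tnrc6b encode the GW182 proteins that bind Argonaute and recruit deadenylases. No member of Ago1 to Ago4 had one, although 11 of the 13 genes had a coding cluster of some class. The share among those 11 was 27.3%, against 29.3% over all genes with such a cluster.

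Of 394 genes with a Zfp symbol, 66 had a cluster, led by Zfp60 (241 reads) and Zfp365 (103 reads). Of the 127 Zfp genes with any coding cluster, 52.0% had one of these, against 29.3% over all genes. The median longest coding exon of the Zfp genes was 1411 bases. Of 69 protocadherins, adhesion molecules of neurons, 10 had one, led by Pcdh9 (222 reads) and Pcdh1 (169 reads). Every protocadherin has a coding exon of at least 1000 bases, and 26.3% of the 38 with any coding cluster had one of these, against 29.3% over all genes.

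Among lists of cell type markers, that of excitatory forebrain neurons had the highest share of genes with a cluster, 6 of 12, led by the transcription factors Bcl11b (67 reads) and Neurod2 (54 reads), with 220 reads in all. The vesicular glutamate transporter Slc17a7 had 34 reads and Camk2a itself had no cluster of this kind. Of 12 interneuron markers 2 had one (Gad1, which makes GABA, with 35 reads, and Cck with 15), and of 12 markers of striatal projection neurons 1 (Drd1, 15 reads). Astrocytes had 3 of 12 (Slc1a2, 31 reads, and Aqp4, 14 reads, were the leading genes), oligodendrocytes 2 of 12 (Mag, 39 reads, and Cnp, 16 reads), microglia 1 of 12 (C1qa, 10 reads) and endothelial and mural cells 1 of 12 (Flt1, 34 reads). Of 5 red blood cell markers 2 had one, the near-identical globin genes Hba-a1 and Hba-a2, which shared 1 cluster of 20 reads. Among genes with any coding cluster, 6 of 9 excitatory markers and 2 of 2 red blood cell markers had one. The part of those other cells in the pooled reads was not tested, and a list's share here also moves with the longest coding exon, whose median was 628.5 bases for the excitatory markers and 227.5 for interneurons.

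The seed matches were compared with the coding sequence of the same genes. The deposited columns count 6-base complements of miRNA bases 2 to 7 that have at least 1 base inside the cluster: that definition gave the same number in 107571 of 107584 values checked, over 41 seeds. Matches per kb of cluster were divided by matches per kb in 5435079 bases of coding sequence of 1876 gene models, of which the clusters themselves made up 7.08%. A ratio of 1 means that a seed was as frequent in clusters as in the whole coding sequences. Of the 30 families known to be abundant in brain, 29 had a RefSeq sequence.

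miR-128 matches were the most enriched of the 29, with 292 matches at 0.734 per kb in clusters against 0.480 per kb in coding sequence, a ratio of 1.53 (1.36 to 1.71). miR-29 followed at 1.43 (1.24 to 1.63, 217 matches). miR-99/100 was at 1.37, but on 36 matches, and its interval of 0.958 to 1.89 holds 1. Its deepest clusters were in Bsn (105 reads), Agap2 (70 reads) and Arhgap32 (67 reads). miR-27 was at 1.32 (1.17 to 1.48, 278 matches) and miR-9 at 1.24 (1.09 to 1.40, 262 matches). miR-181, which lay next, was at 1.24 (1.04 to 1.46, 145 matches), and miR-24 at 1.19 (1.03 to 1.37, 193 matches). With Zfp and protocadherin genes left out, the miR-181 ratio was 1.16.

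At the other end were miR-7 at 0.712 (0.598 to 0.841, 138 matches), miR-30 at 0.791 (0.545 to 1.11), miR-17/20/93 at 0.793 (0.614 to 1.01), miR-34 at 0.885 (0.742 to 1.05) and miR-153 at 0.893 (0.680 to 1.15). Of these only miR-7 had an interval below 1. Over the 29 brain families the median ratio was 1.00, 15 lay above 1, and the interval lay above 1 in 6 and below 1 in 1. That count of 6 depended on the reference. With the coding exons that hold the clusters in place of whole coding sequences, miR-128 (1.55), miR-27 (1.38), miR-29 (1.31) and miR-9 (1.15, 1.01 to 1.29) still had intervals above 1. miR-181 at 1.06 (0.896 to 1.25) and miR-24 at 1.03 (0.888 to 1.18) did not, while miR-136 (1.27, 1.13 to 1.43) then did, and so did miR-205 of the other tissues (1.29, 1.14 to 1.45). Over 12 families of other tissues the median was 0.792, 1 lay above 1 (miR-205, 1.12), and the interval lay above 1 in 0 and below 1 in 4. Relative to other words of the same bases, the brain families had a median of 1.08 and the families of other tissues 0.913. No test was made between these groups of families.

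Base composition was set beside each ratio by counting the other 6-base words with the same bases as the seed match. These words had ratios of 0.976 for miR-128, 0.979 for miR-27, 0.969 for miR-181 and 1.01 for miR-9. The 4 families therefore stood above words of their own composition, by 1.57, 1.35, 1.28 and 1.23 times. For miR-29 such words were themselves raised, at 1.12, which left 1.27 times. For miR-7 they were low, at 0.804, which left 0.885. For miR-125 the words of the same bases were higher (1.19) than the seed match (1.16).

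**Figure D3:**
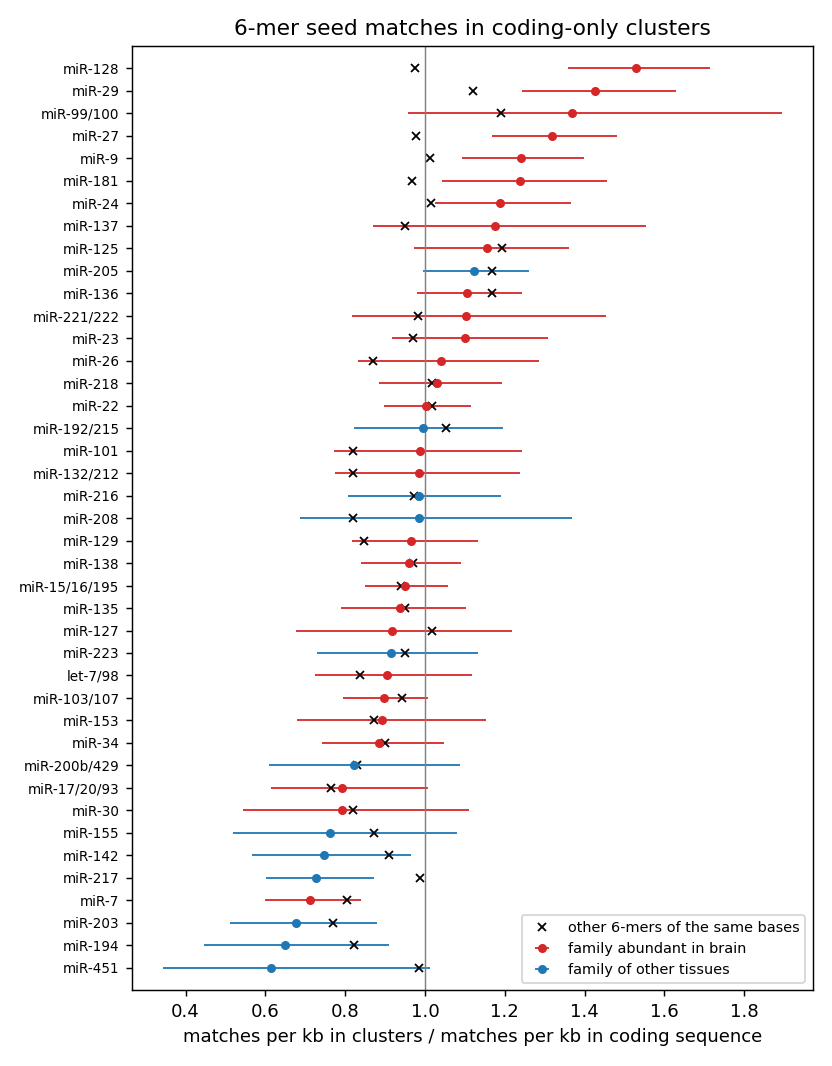
Points give the ratio of seed matches per kb in clusters to matches per kb in coding sequence of the same genes, for 29 families abundant in brain and 12 of other tissues; bars are 95% exact Poisson intervals and crosses are other words of the same bases. miR-128 stands at 1.53 with its cross at 0.976, and miR-7 at 0.712 with its cross at 0.804.

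Stronger types of site showed higher ratios. For miR-128 the ratio was 1.36 (1.13 to 1.62) for a match to bases 2 to 7 alone, 1.54 (1.21 to 1.94) for bases 2 to 8, and 2.17 (1.51 to 3.02, 35 matches) for bases 2 to 8 with an A opposite base 1. For miR-29 these were 1.14, 1.73 and 2.47 (1.44 to 3.95, 17 matches). For miR-27 they were 1.09, 1.58 and 2.29 (1.62 to 3.16, 37 matches). In all 3 families the shortest type was the least enriched. The values of miR-27 and miR-128 are not separate, because the miR-27 sites that pair base 8 are the miR-128 sites with an A opposite base 1, in all 97 stretches.

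For miR-9 the same 3 ratios were 1.04, 1.33 and 1.87 (1.31 to 2.59, 36 matches), and for miR-181 1.08, 1.29 and 2.26 (1.40 to 3.45, 21 matches). For miR-24, chosen after its values were seen, they were 0.997, 1.35 and 1.59 (1.10 to 2.23, 33 matches). Pooled over the 29 brain families, the ratio was 0.974 (0.934 to 1.01) for bases 2 to 7 alone and 1.36 (1.24 to 1.49) for the longest type, and 20 of the 29 had the higher ratio for the longest type, as did 7 of the 12 families of other tissues. Pooled over those 12 families the values were 0.861 (0.789 to 0.938) and 0.922 (0.710 to 1.18). For miR-7 the longest type was at 1.09 (0.583 to 1.87, 13 matches), while bases 2 to 7 alone were at 0.727 (0.577 to 0.904).

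**Figure D4:**
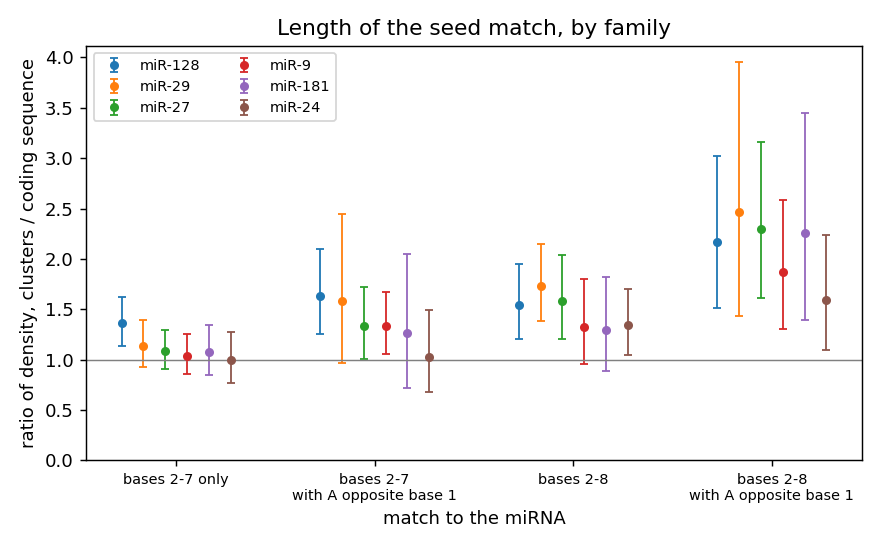
The ratio of match density in clusters to that in coding sequence is plotted for 4 types of seed match in 6 families, with 95% exact Poisson intervals. In each of the 6 families the point for bases 2-8 with an A opposite base 1 is the highest, from 1.59 for miR-24 to 2.47 for miR-29.

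Matches of miR-128, miR-27, miR-181 and miR-29 gathered at the middle of the clusters. This was measured in the 2284 clusters with at least 150 bases of coding sequence on each side of the centre. In the central 50 bases the ratio was 2.42 (2.03 to 2.87, 133 matches) for miR-128, and between 100 and 150 bases from the centre, outside most clusters, it was 0.884 (0.717 to 1.08). For miR-27 the values were 1.98 (1.64 to 2.37) and 0.859 (0.702 to 1.04), and for miR-181 1.90 (1.46 to 2.43) and 0.936 (0.719 to 1.20). For miR-29 they were 1.72 (1.35 to 2.15) and 1.09 (0.880 to 1.33).

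miR-9 was flatter, with 1.25 (0.987 to 1.57) at the centre and 1.02 (0.850 to 1.22) in the flanks. miR-7 was depleted at the centre, at 0.521 (0.349 to 0.748), and not in the flanks, at 0.997 (0.820 to 1.20). In the single bin of 25 bases just 3' of the centre, miR-128 reached 2.88. For miR-99/100 the central ratio was 1.59 (0.821 to 2.77, 12 matches). Over the 29 brain families the central ratio lay above 1 in 17, with the interval above 1 in 7 and below 1 in 4. The 7 included miR-132/212 (1.62, 1.13 to 2.26), miR-136 (1.47, 1.21 to 1.78) and miR-23 (1.41, 1.03 to 1.87). Over whole clusters the ratios of those families were 0.986, 1.11 and 1.10, with intervals that hold 1. Over the 12 families of other tissues the central ratio lay above 1 in 2, with the interval above 1 in 1 (miR-205, 1.47) and below 1 in 3.

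Words with the bases of the seed match moved with some of these central values and not with others. At the centre, other words of the same bases stood at 0.992 for miR-128, 0.997 for miR-27 and 1.13 for miR-181, but at 1.28 for miR-29, 1.48 for miR-205 and 0.553 for miR-7. Such words stood at 0.707 for miR-132/212, 1.48 for miR-136 and 1.14 for miR-23. The central depletion of miR-7 was thus shared by words of its composition. Words made of A and G alone were raised in the clusters in general, with a ratio of 1.34 overall and 1.72 and 1.89 in the 2 bins on either side of the centre, against 1.06 in each outermost bin. Among 2759 words with at least 50 matches, 16 of the 25 highest had at least 5 bases that are A or G. The miR-128 match ranked 40 among the 2759, the miR-29 match 108 and the miR-27 match 219. Further down were the matches of miR-9 (390), miR-181 (396) and miR-24 (530). GAGGAG, chosen after its values were seen, had a ratio of 1.80 overall and reached 2.73 just 3' of the centre. The part of such purine-rich sequence in the central values was not tested.

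**Figure D5:**
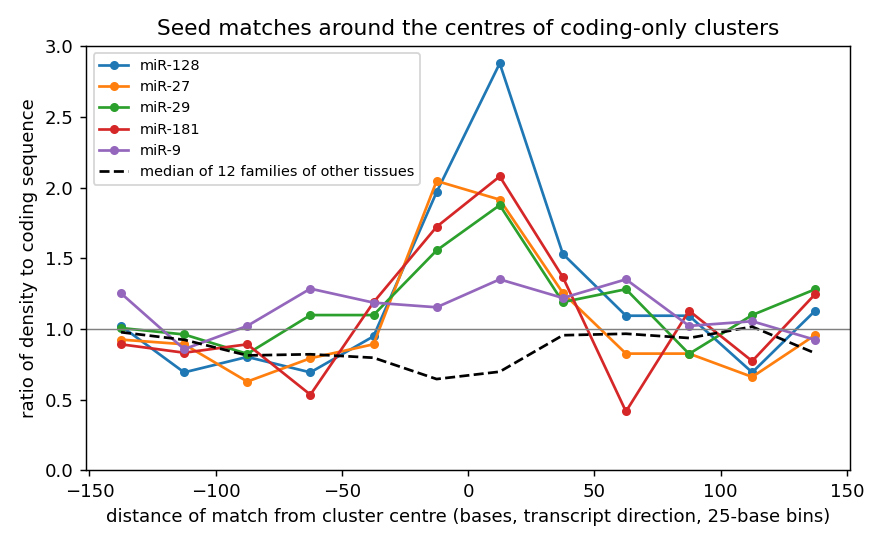
The ratio of seed match density to that of coding sequence is plotted against distance from the cluster centre (bases, transcript direction, bins of 25 bases) for 5 families and for the median of 12 families of other tissues. miR-128 peaks at 2.88 just 3' of the centre, miR-9 stays between 0.857 and 1.35, and the median of the other tissues dips at the centre.

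Since the miR-128 and miR-27 seeds overlap, their matches were separated. Where both were matched by the same stretch, 97 matches gave a ratio of 1.80 (1.46 to 2.19). The miR-128 match alone gave 1.42 (1.23 to 1.64, 195 matches) and the miR-27 match alone 1.15 (0.992 to 1.33, 181 matches). The stretches that match both are also the only miR-27 sites that pair base 8, so the overlap with miR-128 and the stronger type of miR-27 site cannot be told apart here. The 2 families shared 104 clusters, which were 37.8% of the 275 clusters with a miR-128 match and 39.1% of the 266 with a miR-27 match.

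Depth did not order the ratios steadily. In the 4 depth classes, of 10 to 14, 15 to 21, 22 to 32 and 33 to 324 reads, the miR-128 ratio was 1.50, 1.26, 1.65 and 1.69. For miR-9 it was 1.19, 0.961, 1.28 and 1.50, and for miR-29 1.58, 1.61, 1.06 and 1.42. The median depth of clusters with and without a match was 23 and 20 reads for miR-128, 24 and 20 for miR-9, and 20 and 21 for miR-29.

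Reading frame was also compared, because coding sequence constrains where a word can fall. Of miR-9 matches in clusters, 57.3% began at the second codon position, against 58.4% in all coding sequence. For miR-29, 59.4% of matches in clusters and 59.2% in coding sequence began at the third codon position. For miR-128, 47.6% of matches in clusters and 44.8% in coding sequence began at the first position, and 6.85% and 10.4% at the third. miR-181 differed more, with 49.7% in clusters and 43.0% in coding sequence at the first position and 6.21% and 11.4% at the second. For miR-99/100, 41.7% of the 36 matches in clusters and 30.1% in coding sequence began at the second position.

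Coding-only and 3' UTR clusters differed in the families they held. Other classes of coding cluster are not set beside them here. A miR-9 match was present in 9.20% of coding-only clusters (8.16 to 10.4) and in 6.41% of 3' UTR clusters (5.87 to 7.01). miR-128 went the other way, with 10.4% (9.27 to 11.6) and 13.6% (12.8 to 14.4), and so did miR-30, with 1.24% (0.887 to 1.74) and 3.82% (3.40 to 4.30). For miR-124, given only from the deposited column, the shares were 5.73% (4.91 to 6.68) and 10.3% (9.66 to 11.1). Coding-only clusters were narrower (median 129 against 141 bases) and 3' UTRs differ from coding sequence in base composition, which these shares do not take into account. Per kb of cluster, miR-9 was at 0.652 and 0.400 and miR-128 at 0.729 and 0.886. A match to at least 1 of the 30 brain families was present in 2060 coding-only clusters (77.7%, 76.1 to 79.2) and in 82.7% (81.8 to 83.5) of 3' UTR clusters. The 592 coding-only clusters with no such match were narrower, with a median of 114 against 135 bases.

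Genes with a match in a coding-only cluster were examined for a match of the same family in one of their 3' UTR clusters. Matches in other classes of coding cluster, or elsewhere in the coding sequence, did not enter this split. For miR-27, 47 of 130 genes with such a match and a 3' UTR cluster had one (36.2%, 28.4 to 44.7). Of the 846 genes with a 3' UTR cluster and no match in a coding-only cluster, the share was 26.0% (23.2 to 29.1). For miR-9 the shares were 22.8% (16.4 to 30.9) and 15.1% (12.8 to 17.6). For miR-128 they were 27.0% (20.3 to 34.8) and 26.5% (23.6 to 29.6), and for miR-29 20.0% (13.6 to 28.4) and 16.5% (14.2 to 19.1). The intervals overlap in each of these families, but no test was made between the shares. The number of 3' UTR clusters in a gene was not taken into account.

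Clusters in zinc finger genes held a miR-181 match more often than other clusters, a pattern chosen after its values were seen. Of 87 clusters in Zfp genes, 25 had a miR-181 match (28.7%, 20.3 to 39.0), against 108 of the 2565 other clusters (4.21%, 3.50 to 5.06). The coding sequence of the Zfp genes was itself rich in the match, with 1.65 per kb against 0.255 per kb in the other genes. In clusters the densities were 2.57 and 0.293 per kb. The contrast between the 2 groups of genes was thus present in the coding sequence before any cluster was considered. The deepest Zfp cluster with a miR-181 match was in Zfp583 (84 reads, 57.2% of the way through the coding sequence).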

How the data were processed

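The authors deposited 1 table of read clusters from 8 HITS-CLIP libraries, with a whole-number read count per cluster, per the file headers, and no normalization named. The lowest deposited count is 10. Alignment used BWA and mm10, per the submitters' processing notes. How clusters were called, from which libraries, and whether controls or duplicate removal played a part is not given in the sources used here. Other deposited columns used name genes by region or count seed matches. There are 0 columns for single samples, so the intended comparison of Flag-Ago2 with control libraries by a count model could not be made.

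Clusters were placed on GENCODE M21 coding models, preferring the named gene and then a model with the whole cluster in 1 coding exon. Position along the coding sequence was taken at the cluster centre. Seed words came from RefSeq mature miRNAs, and 41 of 49 families had one. Ratios compare matches per kb in clusters with all coding sequence of the same genes. Python 3.11.15, pandas 2.3.3 and scipy 1.17.1 were used, and the ratio was tested on simulated data. Alternatives were a minimum of 20 reads, the cluster start for position, matches to bases 2 to 8, host exons as reference, leaving out Zfp and protocadherin genes, and 3 others added after the data were seen.

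The clusters and lists were chosen with earlier results of these data known. Named items are the 15 deepest clusters, the 10 genes with most clusters, the 2 genes with most reads in each list, the 5 highest and 5 lowest brain families and, for each of the 5 highest, its deepest clusters; others are said to be chosen after their values were seen, or are listed beside a count. A few genes that this rule or a count would name are not reported here.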

Additional observations from a re-analysis of the deposited data

How the results depend on the processing

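The number of clusters was 3569 with the circular RNA entry ignored and 2587 without those that name an antisense gene. The share with at least 100 reads was 3.81% among clusters of at least 20 reads, against 2.04% of all, since fewer shallow clusters entered. The 3' side of the coding sequence held 52.6% of clusters by their first base and 56.5% by their centre, the cluster start lying 5' of the centre by construction. The number of brain families with a ratio above 1 was 15 of 29 and lay between 15 and 20 over 7 alternatives, of which 3 were chosen after seeing the data: other words of the same bases (19), genes weighted by their clusters (16) and no clusters shared with another gene (15). Over those alternatives miR-128 lay between 1.52 and 1.71, miR-29 between 1.27 and 1.81, miR-27 between 1.29 and 1.78, miR-9 between 1.15 and 1.53, miR-181 between 1.06 and 1.54, miR-24 between 1.03 and 1.42, miR-99/100 between 1.15 and 1.83 and miR-7 between 0.705 and 0.885. Of the 5 lowest brain families, miR-17/20/93, miR-30 and miR-153 crossed 1, with highest values of 1.04, 1.02 and 1.09. Several families between the highest and the lowest crossed 1 as well, such as miR-136 (0.948 to 1.27) and miR-125 (0.969 to 1.44). Of 274 genes in the fixed lists, 102 had a cluster and 74 had one of at least 20 reads. No paired analysis was possible because the table does not separate libraries. Of the 29 brain intervals, 6 lay above 1, and 5 did with host exons as the reference, 4 of them in the same families. Few matches limit the precision for rare words, such as that of miR-99/100 (36 matches).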
